A study of Drosophila melanogaster with 2 samples.

Results

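Genes for translation factors and aminoacyl-tRNA synthetases were examined as a set for occupancy by D19B-GFP. The set held every protein-coding gene whose symbol begins eIF (initiation) or eEF (elongation), or is a three-letter amino acid code, GluPro included, followed by RS, with or without -m. It came to 85 of 13986 annotated protein-coding genes: 44 eIF genes, 8 eEF genes, 18 synthetase genes without -m and 15 with -m. Symbols alone chose the members, so alpha-PheRS and beta-PheRS, the subunits of the cytoplasmic phenylalanine enzyme, fell outside the rule and are counted below with other translation genes.

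Chromatin immunoprecipitation with sequencing was done with an anti-GFP antibody on intact Drosophila melanogaster embryos, male and female mixed, aged 0 to 24 h. The embryos came from a transgenic line that stably expresses the zinc-finger protein D19B fused at its C terminus to GFP. The 2 libraries, labelled biological replicates 2 and 3, formed 1 group, so no comparison between conditions was possible. What drives the fusion is not given in the labels, and a pool of whole embryos does not show in which cells a site is bound.

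Translation begins when initiation factors bring the small ribosomal subunit, the initiator tRNA and the mRNA together, with eIF3 as the large scaffold and the eIF4 proteins at the mRNA cap. Elongation factors then deliver charged tRNAs and move the ribosome along, while synthetases join each amino acid to its tRNA. Animal cells use separate synthetases in the cytoplasm and in mitochondria for many amino acids, and the -m genes encode the mitochondrial enzymes.

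Occupied genes were those with a peak summit no more than 500 bp from an annotated transcription start site (TSS). Peaks were those on the authors' IDR list, a list of 4309 regions on dm6 thresholded by irreproducible discovery rate. Every one of these is also among the 4309 tallest regions of the list called on both libraries together, so an IDR peak need not stand in each library's own list. Of the 85 genes, 22 were occupied (25.9%, 95% exact interval 17.0 to 36.5%), beside 15.3% of all protein-coding genes. The share differed between the classes, from 5 of 8 elongation factor genes (62.5%, 24.5 to 91.5%) to 1 of 15 synthetase genes with -m (6.67%, 0.169 to 31.9%). Between them stood 7 of 18 synthetase genes without -m (38.9%, 17.3 to 64.3%) and 9 of 44 initiation factor genes (20.5%, 9.80 to 35.3%). The intervals of all 4 classes overlap, cover counting error only, and do not separate one class from another. The interval of the initiation class also spans the share of all protein-coding genes, whereas the lower bounds for elongation factors and for synthetases without -m lie above it with the IDR list. With replicate 3 alone neither does, the shares being 25% (3.19 to 65.1%) and 22.2% (6.41 to 47.6%) beside 12.8% of all protein-coding genes. With replicate 2 alone the synthetase bound of 13.3% is also below the 16.3% of all genes. A coding gene starts on the opposite strand within 1000 bp upstream of 16 of the 18 synthetase genes without -m. Of all protein-coding genes so placed 24.7% were occupied with the IDR list, which is above the synthetase bound of 17.3%. The same layout holds for 5 of the 8 elongation factor genes, and their bound of 24.5% is also just below 24.7%.

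**Figure D1:**
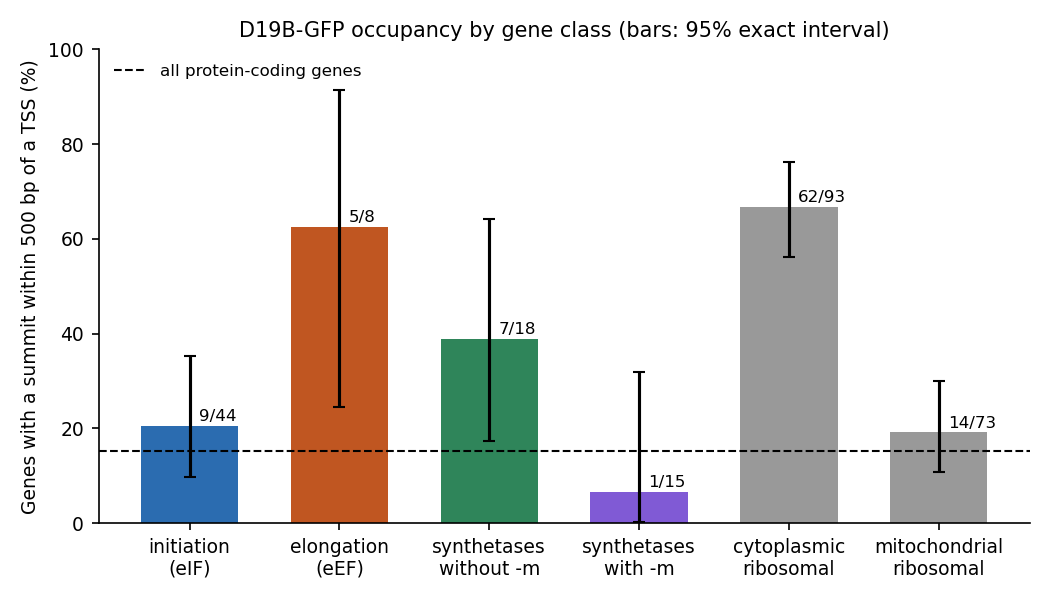
Share of genes in each class with a D19B-GFP summit within 500 bp of a TSS (y axis, percent), with the 2 ribosomal protein classes in grey; error bars are 95% exact intervals and the dashed line is the share of all protein-coding genes, 15.3%. Elongation factor genes reached 62.5% and synthetase genes with -m 6.67%.

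The sequences under 10 of the summits are shown because they carry, or in GluProRS and ArgRS-m lack, the words described further on, and differ in base composition. Each runs 50 bp to either side of a summit, read on the strand of the gene, from release 6 of the genome, whose coordinates are those of dm6. Capitals mark every copy, on either strand, of TATAAA (the TATA box word), CGATA, TATCGATA (bound by BEAF-32 and DREF), ACAGGGTA and GGTCACAC (the core of the promoter word known as Motif 1). Each TATCGATA also holds CGATA.
eIF4EHP, chr3R:24109175-24109275, minus strand: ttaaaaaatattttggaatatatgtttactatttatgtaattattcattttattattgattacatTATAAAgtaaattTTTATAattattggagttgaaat
eIF5B, chr3L:3460688-3460788, minus strand: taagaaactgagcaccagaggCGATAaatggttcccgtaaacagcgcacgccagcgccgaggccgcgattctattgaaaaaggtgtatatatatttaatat
eIF1, chr3L:3222981-3223081, plus strand: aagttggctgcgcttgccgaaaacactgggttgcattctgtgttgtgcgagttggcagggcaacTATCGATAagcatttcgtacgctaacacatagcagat
eEF1gamma, chr3R:29220089-29220189, plus strand: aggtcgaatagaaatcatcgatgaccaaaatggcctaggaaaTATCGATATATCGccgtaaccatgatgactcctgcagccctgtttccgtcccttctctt
eEF2, chr2L:21682090-21682190, minus strand: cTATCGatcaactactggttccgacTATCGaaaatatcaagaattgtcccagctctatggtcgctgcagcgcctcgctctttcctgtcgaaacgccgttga
GluProRS, chr3R:23958474-23958574, minus strand: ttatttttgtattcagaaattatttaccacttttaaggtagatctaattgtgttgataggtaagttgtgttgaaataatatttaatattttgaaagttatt
SerRS, chr2L:3037341-3037441, minus strand: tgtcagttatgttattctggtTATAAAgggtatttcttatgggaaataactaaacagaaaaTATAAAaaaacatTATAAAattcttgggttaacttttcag
ThrRS, chr2L:12103512-12103612, plus strand: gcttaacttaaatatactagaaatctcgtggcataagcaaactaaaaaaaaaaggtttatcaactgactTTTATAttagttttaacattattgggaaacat
AsnRS, chr2L:19132056-19132156, minus strand: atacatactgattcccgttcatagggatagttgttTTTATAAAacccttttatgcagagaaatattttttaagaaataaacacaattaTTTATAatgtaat
ArgRS-m, chr3R:7886872-7886972, plus strand: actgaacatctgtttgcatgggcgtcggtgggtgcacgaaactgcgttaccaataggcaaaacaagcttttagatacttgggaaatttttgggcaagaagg

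Initiation factor genes carried the tallest peaks of the set. The first stood at eIF4EHP, which encodes a cap-binding protein that competes with eIF4E and represses maternal mRNAs in the early fly embryo. Its peak, at 24108882 to 24109482 on 3R, had a signal of 3014 over the combined libraries, 1928 in replicate 2 and 1097 in replicate 3, and ranked 21 of 4309. The signal is the authors' own value for each peak, in a unit not given in the labels, and lists of different libraries are not scaled to each other. The summit lay 265 bp upstream of the eIF4EHP TSS and 111 bp from that of CG18428, so the nearer start was the neighbour's. As the printed sequence shows, the window was 12.9% GC, lower than at any other member.

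eIF4EHP also held peaks deep inside the gene. Beyond the 500 bp window, 4 further IDR peaks lay in its introns at 2522, 8052, 9193 and 9833 bp from the nearest eIF4EHP TSS, with signals of 123, 778, 392 and 915. The occupied eIF5B, which encodes the GTPase that joins the ribosomal subunits, had 2 such intronic peaks, with signals of 679 at 9972 bp and 275 at 27770 bp. No other member had an IDR peak inside the gene more than 500 bp from its starts.

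A further 2 initiation factor genes ranked among the tallest 10% of IDR peaks, both without another coding TSS near the summit. At the eIF5B start the combined signal was 1226, with 691 in replicate 2 and 543 in replicate 3, and the summit lay 135 bp upstream of one TSS, inside the 5' UTR of a longer transcript. At eIF6, whose product keeps the large ribosomal subunit from joining too early, the values were 1210.0, 806 and 417, with the summit 108 bp upstream. Neither library ranked either peak lower than 151 in its own list.

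Of the small factors that act at the start codon, eIF1 was occupied, and its promoter region is also that of RpL28, a gene for a protein of the large ribosomal subunit. The taller of its 2 peaks had a combined signal of 426, with 261 in replicate 2 and 168 in replicate 3. That summit lay 310 bp upstream of eIF1 and 71 bp from the RpL28 TSS. The lower peak, 59 bp upstream of eIF1, had 132 combined and 107 in replicate 2, and replicate 3 placed no summit within 100 bp of it. The taller summit, with its TATCGATA, thus sat closer to the ribosomal protein gene, and the lower one closer to eIF1. eIF2D, which encodes a factor that can deliver tRNA outside the usual eIF2 route, had a peak of 177 (112 in replicate 2, no summit in replicate 3).

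The eIF3 genes were occupied at 4 of 16 (25%, exact interval 7.27 to 52.4%, which spans the 15.3% of all protein-coding genes). These were eIF3h, eIF3c, eIF3j and eIF3m, all subunits of the same scaffold, with signals of 300.1, 217, 204 and 137 combined. In single libraries, eIF3h had 189.9 in replicate 2 and 100.5 in replicate 3, and eIF3j had 122 and 79.4. eIF3c and eIF3m had 144 and 71.7 in replicate 2, and replicate 3 had no match for them. The eIF3h summit was in an intron 319 bp downstream of the start, and the eIF3c summit was 13 bp upstream of its TSS.

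Among the remaining initiation factor groups, set by symbol, few genes of eIF2B, eIF2 and eIF4 were occupied. The groups are small, and the intervals of eIF2B, eIF2, eIF4 and the other eIF genes all span the 15.3% of all protein-coding genes. None of the 5 genes for eIF2B, the exchange factor that reloads eIF2 with GTP, had a summit (upper bound 52.2%). Of the 5 other genes with a symbol in eIF2 only eIF2D did (20%, exact interval 0.505 to 71.6%), and eIF2alpha, eIF2beta and eIF2gamma did not. Of the 13 eIF4 genes, eIF4EHP alone was occupied (7.69%, exact interval 0.195 to 36.0%), and the cap-binding eIF4E genes, the helicase gene eIF4A and the scaffold genes eIF4G1 and eIF4G2 were not. Among eIF1, eIF1A, eIF5, eIF5B and eIF6, 3 of 5 were (60%, exact interval 14.7 to 94.7%).

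Occupied elongation factor genes covered each step of the cycle. eEF1alpha1 encodes the GTPase that delivers charged tRNAs, eEF1beta and eEF1gamma encode parts of its exchange complex, eEF2 encodes the translocase, and eEF5 encodes the homologue of human eIF5A, which helps the ribosome through proline stretches. eEF1beta was tallest, with 718 combined, 387 in replicate 2 and 330.0 in replicate 3, at a summit in an intron 228 bp downstream of its nearest TSS. eEF1gamma followed with 514 in both and 371 in replicate 2, at a summit 33 bp upstream whose window holds TATCGATA. Replicate 3 listed no region over the eEF1gamma summit, its nearest summit being 2055 bp away.

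The other 3 elongation peaks were lower. eEF1alpha1 had signals of 211, 139 and 69.5 in both libraries, replicate 2 and replicate 3, at a summit 63 bp upstream of an internal TSS, in an intron of the longer transcripts. eEF5 had 175 and 102 with no summit in replicate 3, and eEF2 had 143, 97.2 and 33.3. The eEF2 summit lay midway between 2 of its TSSs, 24 bp from each. The unoccupied members were eEF1alpha2, the second eEF1A gene, eEF1delta and eEFSec, the factor for selenocysteine. None of the 5 elongation peaks had another coding TSS within 500 bp, in contrast to those of the synthetases. Even so, a coding gene starts on the opposite strand within 1000 bp upstream of 5 of the 8 elongation factor genes.

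**Figure D2:**
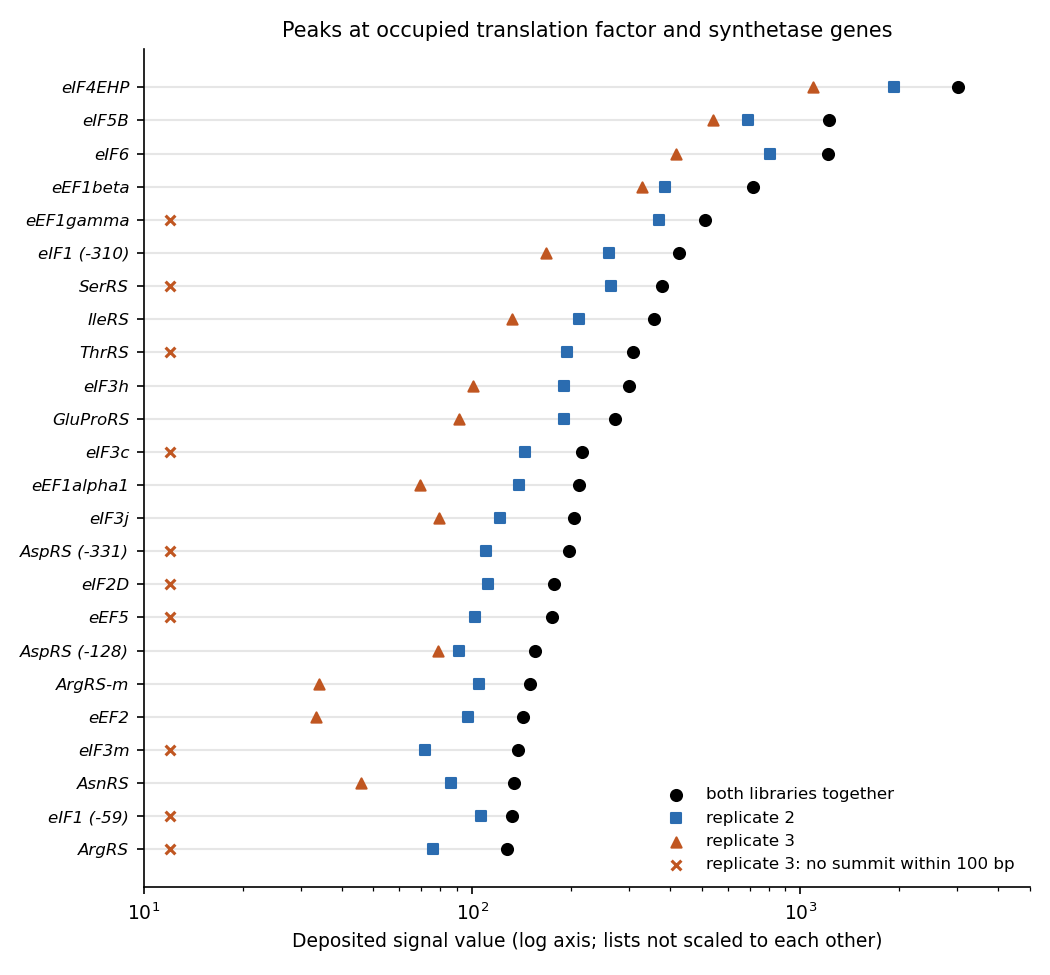
Deposited signal (x axis, log scale) of the 24 peaks at occupied genes (y axis; the summit position in bp is given where a gene has 2 peaks) in both libraries together, replicate 2 and replicate 3, with a cross where replicate 3 listed no summit within 100 bp. Signals in both libraries ran from 128 to 3014, and 10 of the 24 peaks carry a cross.

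Synthetase genes of the cytoplasmic set had peaks of moderate height. SerRS, with a combined signal of 378 and 265 in replicate 2, had its summit in the 5' UTR 12 bp downstream of its TSS and 20 bp from the TSS of CG17260. IleRS had 359, 212 in replicate 2 and 132 in replicate 3, at 181 bp upstream, shared with Hem, a gene of the actin-regulating SCAR complex. ThrRS had 309.7 combined and 194 in replicate 2, at 189 bp upstream, shared with Patsas. SerRS and ThrRS, like eEF1gamma, were absent from the list of replicate 3 although SerRS ranked 794 and ThrRS 1272 of 30000 in replicate 2.

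GluProRS, the gene for a single protein that charges the tRNAs of both Glu and Pro, had 273 combined, 190.0 in replicate 2 and 91.0 in replicate 3. Its summit was 127 bp from the TSS of AP-1sigma, a clathrin adaptor gene, and 133 bp from its own. The lowest were AspRS, with 197 and 156 at 2 summits shared with Nmda1, AsnRS, with 134 (86.1 in replicate 2, 45.8 in replicate 3), and ArgRS, with 128 (76.2 in replicate 2, no summit in replicate 3). Both AspRS summits lay in an intron, 331 and 128 bp upstream of an internal AspRS TSS, and nearer to that of Nmda1, at 155 and 74 bp. The first had 110 in replicate 2 and no replicate 3 summit within 100 bp. The second had 91.3 in replicate 2 and 78.8 in replicate 3. ArgRS ranked 3880 and was the member just inside the limit of the list. Just outside it was eIF2Bgamma, whose tallest region had a signal of 102 and ranked 5071 in the list of peaks and background, against 117 for the lowest IDR peak.

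In animals, several cytoplasmic synthetases assemble into one multi-synthetase complex. Of the 8 genes for the synthetases known in it, chiefly from mammals, ArgRS, AspRS, GluProRS and IleRS were occupied and LeuRS, LysRS, MetRS and GlnRS were not. This grouping was made after the values were seen. Outside it, AsnRS, SerRS and ThrRS were occupied.

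ArgRS-m was the only occupied gene among the 15 mitochondrial synthetase genes. Its combined signal was 150.5, with 105 in replicate 2 and 34.2 in replicate 3, at a summit 123 bp upstream of its TSS and 189 bp from that of CG17816. For 12 amino acids the set held one gene with -m and one without. Arg alone had both occupied, Asn, Asp, Ile and Ser had only the gene without -m occupied, and the other 7 had neither. LeuRS-m had an IDR peak of 522 just beyond the window, 898 bp from its TSS, and among initiation factors eIF2Bbeta had one of 2571 at 676 bp, which lay at the start of Ugalt.

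Most unoccupied genes had no region in the list of both libraries together, though some of these had one in a single-library list. The list of peaks and background in both libraries together holds 30000 regions down to a signal of 30.2. Within 500 bp of a TSS it reached 39 of the 85 genes, beside 5530 of 13986 protein-coding genes (39.5%). No interval is given for the member share, and whether it differs from that of all protein-coding genes was not tested. Of the 63 unoccupied members 17 were on this list, with signals from 30.8 to 102, and 46 were not. After eIF2Bgamma the highest were eIF4A (86.0), eIF2beta (79.5), GlyRS (79.2), ValRS (79.1), eIF5 (77.5), AlaRS (77.3) and eIF4E1 (68.8). The unlisted included 26 initiation factor genes, 1 elongation factor gene, 7 synthetase genes without -m and 12 with it.

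**Figure D3:**
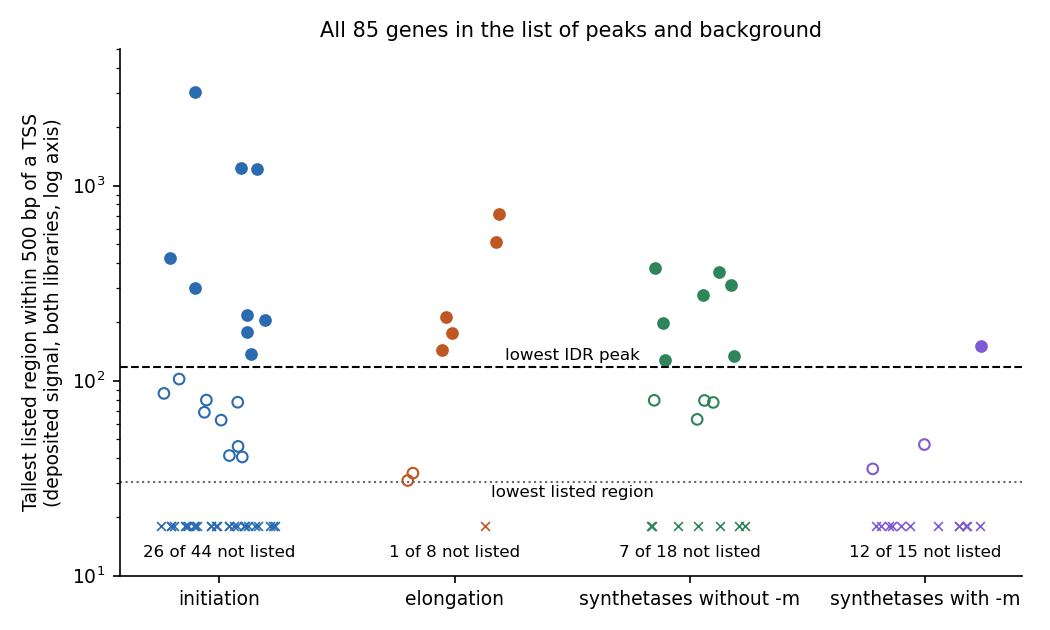
Tallest listed region within 500 bp of a TSS for each of the 85 genes (y axis, deposited signal in both libraries, log scale), by class; filled points are occupied genes, open points are listed but below the IDR list, and crosses mark genes with no listed region. Of the 15 synthetase genes with -m, 12 had no region in the list of both libraries together.

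As peaks, those at the set were close to others at gene starts in height. The 24 distinct peaks had a median signal of 213.9 (quartiles 154 and 390.2), against 218 (155 and 378) for all 1923 TSS-proximal IDR peaks, and their −log10 q ran from 3.19 to 3.802. Of the 24, 4 were in the tallest 10% of the IDR list, namely eIF4EHP, eIF5B, eIF6 and eEF1beta.

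At these genes the 2 libraries differed. A summit within 100 bp of the IDR summit was listed in replicate 2 for all 22 occupied genes and in replicate 3 for 14 (63.6%, exact interval 40.7 to 82.8%). Among all occupied protein-coding genes, 83.9% had one in both libraries. Counted over all genes, the 14 members were 16.5% of the set, beside 12.8% of protein-coding genes. The 8 without were SerRS, ThrRS, ArgRS, eEF1gamma, eEF5, eIF2D, eIF3c and eIF3m, and a tolerance of 250 bp added none of them. Why replicate 3 listed no summit there was not tested.

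The set stood above all genes in replicate 2 but not clearly in replicate 3. With the 4309 regions of highest signal in replicate 2, 22 members were occupied (25.9%, beside 16.3% of protein-coding genes), and 20 of them were those of the IDR list. With the same number from replicate 3, 12 were occupied (14.1%, 7.51 to 23.4%), beside 12.8%, which is near the background. All 12 were also on the IDR list. In replicate 3 the classes gave 6 of 44 initiation, 2 of 8 elongation, 4 of 18 and 0 of 15 synthetase genes. Where both libraries listed a summit, 8 of the 14 peaks ranked higher in replicate 3, among them eIF5B, at 79 against 151, and eEF1beta, at 187 against 425. The unscaled signal was larger in replicate 2 at all 14, with a median ratio of 1.82 beside 1.97 for TSS-proximal peaks, which does not show stronger binding in that library.

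Narrowing the window kept most of the set. Within 200 bp of a TSS, 19 members had a summit (22.4%), beside 9.24% of protein-coding genes, and eIF4EHP, eIF3h and eEF1beta were lost. Within 1000 bp there were 24 (28.2%), beside 18.3%, with eIF2Bbeta and LeuRS-m gained. All 7 occupied synthetase genes without -m kept a summit within 200 bp.

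Summits lay mostly upstream, but the classes differed in where. Of the 24 summits 18 (75%) were upstream of the nearest TSS of the member gene, and the median position of all 24 was -115.5 bp. Those of eIF5B, eIF3j, eEF1alpha1 and AspRS lay inside the gene and upstream of an internal TSS only. With only the 5'-most TSS of each gene the upstream share was 65%. Of all TSS-proximal peaks 80.8% were upstream. For those the nearest TSS of any gene, coding or not, was taken, so the 2 shares are not measured alike. The 8 summits at synthetase genes without -m had a median distance of 161.5 bp, and the 5 at elongation factor genes 33 bp. Within 100 bp of the TSS were 8 of the 15 summits at factor genes and 1 of the 9 at synthetase genes, that of SerRS.

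**Figure D4:**
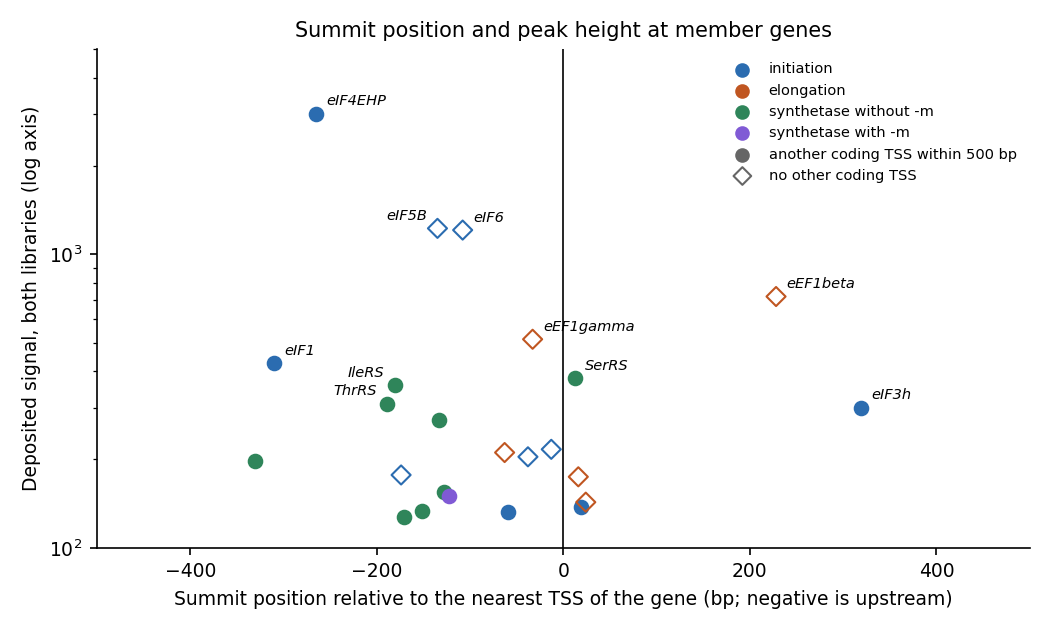
Position of each of the 24 summits relative to the nearest TSS of the gene (x axis, bp, negative upstream) and its signal in both libraries (y axis, log scale); filled circles have another coding TSS within 500 bp and open diamonds do not. All 9 synthetase summits are filled, against 5 of the 15 at factor genes.

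The synthetase peaks all lay close to the start of a second gene. Each of the 9 summits at synthetase genes had a TSS of another coding gene within 500 bp, as did 5 of the 15 at factor genes. Of all TSS-proximal IDR peaks 29.9% were near at least 2 coding genes. That base also admits peaks near noncoding genes only, whereas every member peak has a coding TSS by definition, so the shares are not measured alike. The gene layout itself went the same way: 16 of the 18 synthetase genes without -m had a coding gene starting on the opposite strand within 1000 bp upstream, a divergent pair, against 36.1% of protein-coding genes. Among divergent protein-coding genes 24.7% were occupied, and among the rest 9.88%. In the set 17 of 49 divergent genes (34.7%) and 5 of 36 others (13.9%) were occupied, with 7 of 16 and 0 of 2 for the synthetases without -m. Elongation factor genes were divergent at 5 of 8 (62.5%), and 3 of these 5 and 2 of the 3 others were occupied. At a shared start a summit cannot be given to one gene of the pair, and for 7 of the 24 peaks the nearest TSS was that of another gene.

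Base composition under the summits differed between synthetase genes without -m and elongation factor genes. The median GC content of the window was 25.7% at synthetase genes without -m (range 20.8 to 34.7%, 8 peaks) and 45.5% at elongation factor genes (40.6 to 52.5%, 5 peaks), so these ranges did not overlap. At initiation factor genes it was 38.6% (12.9 to 48.5%, 10 peaks), and at all TSS-proximal peaks 32.7%. The single ArgRS-m window, at 45.5%, equalled the elongation median, and the lowest value of all belonged to eIF4EHP. In the printed windows the contrast can be read directly, from GluProRS, at 20.8%, to eEF2, at 49.5%.

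**Figure D5:**
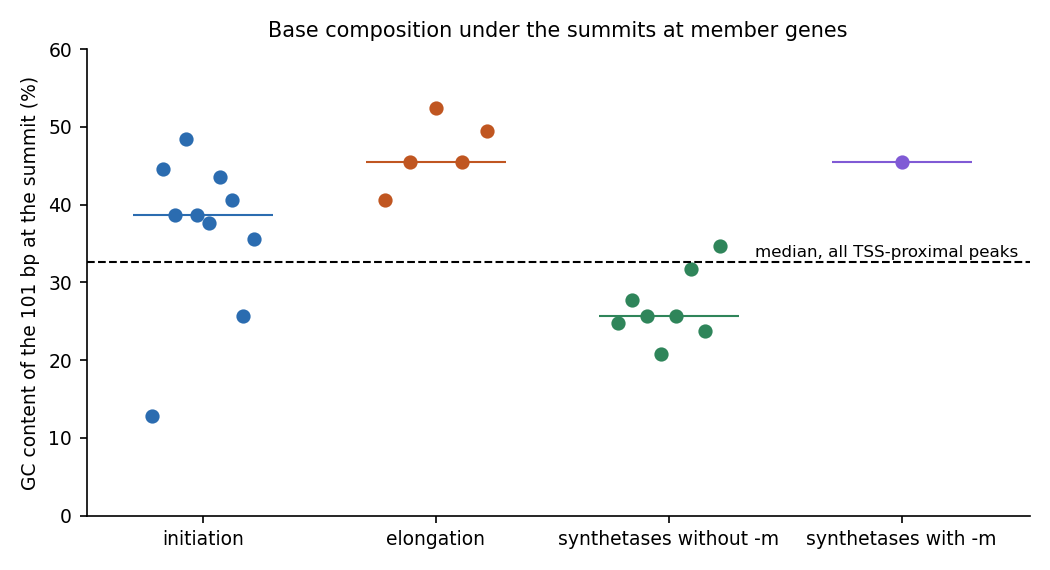
GC content of the window reaching 50 bp to either side of each summit (y axis, percent) by gene class; short lines are class medians and the dashed line is the median of all TSS-proximal peaks, 32.7%. The 8 windows at synthetase genes without -m lie between 20.8 and 34.7%, and the 5 at elongation factor genes between 40.6 and 52.5%.

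Of the words searched, CGATA and TATAAA were the most frequent at members, as they were at all TSS-proximal peaks. TATCGATA was in 2 of the 24 windows (8.33%, exact interval 1.03 to 27.0%), those of eEF1gamma and of eIF1 with RpL28, beside 1.72% of TSS-proximal windows. CGATA was in 7 (29.2%, beside 14.9%), among them eIF5B, eEF2, eEF5 and eIF3j. TATAAA was also in 7 (29.2%, beside 23.0%), of which 4 were at synthetase genes and none at elongation factor genes. For CGATA and TATAAA alike the exact interval of 12.6 to 51.1% spans the share at TSS-proximal peaks. In windows reaching 100 bp to either side the order for TATAAA turned, with 29.2% of member windows beside 38.8%. GGTCACAC was in 1 window, at eEF1alpha1 (4.17%, beside 0.676%), and ACAGGGTA in 0 of 24, which allows up to 14.2%, beside 1.56%. A match is only a run of letters in the window and does not show a bound site.

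Other genes of translation, from a list outside the symbol rule, were occupied at 6 of 34 matched (17.6%, exact interval 6.76 to 34.5%), a share near that of all protein-coding genes. Of the 5 release, recycling and rescue genes, eRF3 (signal 144), which encodes the GTPase of termination, and pelo (176) and HBS1 (151), which release stalled ribosomes, were occupied, while eRF1 and pix were not. Of 12 regulators pAbp (149), for the poly(A)-binding protein, and crc (123), the fly ATF4 gene, were. Among 9 relatives of the synthetases GatA (161), for a subunit of the enzyme that makes mitochondrial Gln-tRNA, was occupied, and alpha-PheRS, beta-PheRS and the 3 AIMP genes were not. None of the 8 matched mitochondrial translation factor genes had a summit (upper bound 36.9%).

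Set beside ribosomal protein genes, the closest classes by function, the members as a whole had a share between theirs with the IDR list. Cytoplasmic ribosomal protein genes were occupied at 62 of 93 (66.7%) and mitochondrial ones at 14 of 73 (19.2%). In replicate 3 alone the cytoplasmic ribosomal share was 53.8% and the mitochondrial 17.8%, and the 85 genes, at 14.1%, were below both. With a summit required in both libraries the 85 genes and the mitochondrial ribosomal genes were close, at 16.5% and 16.4%. Of the cytoplasmic ribosomal genes, RpL28 shares its peak with eIF1.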

How the data were processed

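The members, classes and lists were chosen with earlier results of these data known, and the multi-synthetase grouping and the divergent pairs were added after the values were seen. Peak lists for dm6 were used. Per the file records deposited with the samples, regions were called as peaks and background in each library and in both together, then thresholded by IDR. The control named in the labels is not analysed here. Sonicated fragments of 200 to 800 bp were immunoprecipitated, per the labels. The sources used here do not give the aligner, caller, thresholds or read depths. Each region's signal and −log10 q are values deposited by the authors.

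Coordinates are 1-based. Genes and TSSs came from Ensembl release 115 (FlyBase 6.54), without transposable elements, and sequence from RefSeq release 6, equal to dm6; every region lay within its arm. Where TSSs were equally near, the 5'-most was taken. Every occupied gene is named, with the 8 unoccupied ones of highest signal. Of 35 other translation genes, mEFG2 was not matched. Shares carry 95% Clopper-Pearson intervals, which cover counting error only, and no test was run. Python 3.11.15, pandas 2.3.3, numpy 2.4.6, scipy 1.17.1 and matplotlib 3.10.9 were used; the gene assignment was checked on simulated data. The dm3 lists were not used. Alternatives changed the window, the list, the TSSs, the matching tolerance and the motif window.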

Additional observations from a re-analysis of the deposited data

How the results depend on the processing

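Of 60 recomputed values, 53 stayed within the exact interval of the value reported, or, for the median signal, within 1 SD (10.3) of the medians of the 2 libraries. The intervals of small classes are wide, so this count does not show that their shares are stable. With 1 library left out, the share of all members was 14.1% without replicate 2 and 25.9% without replicate 3. It was 28.2% with the 1000 bp window and 16.5% with the 2154 tallest IDR peaks, where 8.92% of protein-coding genes were occupied. For synthetase genes with -m it was 0% without replicate 2, 6.67% without replicate 3, 0% with the 2154 tallest peaks and 13.3% with the 1000 bp window. The elongation count was 2 of 8 without replicate 2. That share of 25%, against 62.5% with the IDR list, is still counted among the 53, as the interval is 24.5 to 91.5%. The median signal of member peaks was 116 without replicate 2 and 131 without replicate 3, in lists not scaled to each other, and 245 with a 1000 bp window, which adds peaks. Counting only the nearest TSS left 17 members (20.0%, beside 11.6% of protein-coding genes) and 4 of 18 synthetase genes without -m. Classes of 8 to 18 genes and the unknown depth limit every class share.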

Other observations

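Fly ribosomal protein genes often start within a pyrimidine-rich TCT initiator. TCTTT or CCTTT, with the C within 2 bp of an annotated TSS on the gene's strand, was found at 2 of the 85 genes (2.35%), the occupied eIF3m and the unoccupied TyrRS. The same search found it at 18 of 93 cytoplasmic ribosomal protein genes (19.4%) and at 1.32% of protein-coding genes.

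In replicate 2 alone, 2 genes outside the IDR list were occupied. eIF3a had a region of signal 105 at rank 2997 of that library, with none listed within 500 bp in replicate 3 or in both libraries together, and eIF4G2 had one of 80.3 at rank 4280 and 17.3 in replicate 3.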
